A study of Mus musculus with 11 samples.

Results

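The alpha, theta, zeta and microsomal glutathione transferases were followed in the aorta of old mice with and without dietary nitrate. Their members were the 10 genes Gsta2, Gsta3, Gsta4, Gstt1, Gstt2, Gstt3, Gstz1, Mgst1, Mgst2 and Mgst3, found by the gene name given to each array probe. They were measured by 13 of the 55681 probes on the array, which carry 36413 different names. RNA of the descending aorta, cleaned of fat and connective tissue, was hybridised to one-color arrays with 1 mouse per array. All mice were male C57BL/6 animals aged 20 months. The old nitrate treated mice (n = 5) had received 1 g/L NaNO3 in their drinking water for 8 weeks. The old control mice (n = 6) carry the agent label control and are described as a re-analysis of earlier samples, and their labels name no sodium chloride, although the study's methods give the untreated animals an equal amount of it. The methods state 6 mice per group, and the remaining nitrate array was not used here.

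Glutathione transferases join the thiol of glutathione to reactive compounds, which makes them water soluble and ready for export. The alpha, theta and zeta enzymes are soluble proteins. The microsomal enzymes are unrelated in structure, sit in membranes and belong to a family that also makes leukotrienes and prostaglandins. In vessels these enzymes are known for removing aldehydes and peroxides that arise when lipids are oxidised, and several of them are target genes of the transcription factor NRF2.

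A few probe sequences and promoter stretches show what was measured. Probes are 60 bases long, written 5′ to 3′ in the sense of the transcript, with positions in the mm9 build of the mouse genome that the files give. The whole probes of Gsta4, Mgst2 and Mgst3 are given because each of these genes was called lower by at least 1 probe and because the probe of Gsta4 and the second of Mgst3 each cover a splice junction, spanning 1173 and 1811 genomic bases.
Gsta4, chr9:78046172-78047344, plus strand: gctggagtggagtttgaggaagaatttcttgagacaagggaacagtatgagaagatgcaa
Mgst2, chr3:51486449-51486508, plus strand: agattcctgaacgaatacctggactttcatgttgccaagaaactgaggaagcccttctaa
Mgst3 probe 1, chr1:169303928-169303987, minus strand: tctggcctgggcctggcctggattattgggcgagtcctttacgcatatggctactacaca
Mgst3 probe 2, chr1:169305625-169307435, minus strand: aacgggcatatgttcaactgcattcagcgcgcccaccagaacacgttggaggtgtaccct
For the probes nearer the ends of their transcripts only the middle 30 bases are shown. The pair from Gsta3 is given because it had the widest differences, and the one from Gstt3 because that transcript went the other way.
Gsta3 probe 1, chr1:21255204-21255233, plus strand: ggatgctctctagttgtagttaaaattgaa
Gsta3 probe 2, chr1:21255058-21255087, plus strand: agtacatagcccccacaaagccaaccttct
Gstt3, chr10:75236981-75237010, minus strand: ctgactttccaaattcttgtcccaagcatt
The Gsta2 probe shares 30 consecutive bases, in capitals, with the probe of the predicted gene Gm10639, and 53 of its 60 bases match it when the probes are aligned without gaps.
Gsta2, chr9:78178863-78178892, minus strand: GTTTGCAATTATAAAATACAATTGTTGATT
None of the other 12 probes shared a run above 14 bases with a differently named probe of the array. The 2 probes of Gsta3 lie 146 bases apart along the transcript, those of Mgst1 98 bases and those of Mgst3 111 bases.

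The core of the antioxidant response element, the DNA motif bound by NRF2, was searched as TGACNNNGC on both strands of RefSeq promoter windows (GRCm38.p6, 250 bases before to 50 after a start site). Windows were given for 8 members, and 2 of their 11 windows held the motif, beside 12.4% of all 32851 windows. The matches, in capitals, begin at position -121 from the start site of Gsta3 and -56 from that of Mgst1, where the motif reads on the opposite strand.
Gsta3 promoter, chr1:21240424-21240512, plus strand: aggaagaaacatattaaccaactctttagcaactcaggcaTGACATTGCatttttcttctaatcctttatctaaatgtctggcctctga
Mgst1 promoter, chr6:138140431-138140519, plus strand: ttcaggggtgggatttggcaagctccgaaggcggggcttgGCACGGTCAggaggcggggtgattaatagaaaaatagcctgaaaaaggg
A match describes these letters and not binding.

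Between 28935 and 33517 of the 59305 spots per array were well above background, and the number of mice limits the precision. Signals are quantile normalized log2 values, so that a difference of 1 is a doubling, and the level of a probe was compared only with itself. A transcript was called when the limma test gave an unadjusted P value under 0.05 and the fold change exceeded 1.2. These limits follow the methods of the paper. All 8 smooth muscle markers, with Acta2 and Myh11, and all 8 endothelial markers, with Pecam1 and Cdh5, were detected. All 8 smooth muscle markers had higher means in old nitrate treated mice. 1 of them (Lmod1) was called higher, beside 9% of all detected transcripts called in either direction. 1 (Smtn) had groups that did not overlap, beside 2.75% of all detected transcripts. The centred mean of the smooth muscle markers ran from -0.05 to 0.23 in old nitrate treated mice and from -0.34 to 0.04 in old control mice, a log2 difference of 0.15 (exact permutation P = 0.0779). That of the endothelial markers differed by -0.0098 (exact permutation P = 0.881), and none of them was called. All 25 adipocyte markers were also detected and had lower means in old nitrate treated mice, and 11 of them were called lower, beside 4.85% of all detected transcripts called lower. Their mean, centred on each marker, ran from -0.47 to -0.06 in old nitrate treated mice and from -0.23 to 0.69 in old control mice, a log2 difference of -0.45 (exact permutation P = 0.0216). Adiponectin (Adipoq) differed by -0.49 on the log2 scale without overlap and the lipid droplet protein Plin1 by -0.24 (exact permutation P = 0.141). All 8 brown adipocyte markers were detected and 5 of them had lower means in old nitrate treated mice, with a list median of -0.15. Cidea was called lower (-0.52, exact permutation P = 0.00649), and Ucp1 differed by 0.23 (exact permutation P = 0.662). In these bulk samples, fewer cells of a type and less RNA per cell cannot be told apart. The arrays lay on 3 slides that each held both groups, but all 6 controls lay in slide column 3 and no nitrate array did, so column and treatment cannot be told apart. The array of old control mouse 1 had the lowest mean correlation with the other arrays (0.985, against 0.990 to 0.993 for the others).

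Of the 13 probes, 12 passed detection. 8 of these 12 transcripts were called, all lower in old nitrate treated mice, beside 9% of all 23630 detected transcripts called in either direction and the 4.85% called lower. 10 of the 12 had a P value under 0.05 by limma, beside 14.4% of all detected transcripts. By the brightest probe of each gene, 5 of the 9 detected genes were called (Gsta3, Gsta4, Gstz1, Mgst1 and Mgst2), beside 8.89% of all names. The median log2 difference of the 9 genes was -0.36, against 0.02 over all names. Gsta3, Gsta4, Gstt3, Gstz1 and the 3 microsomal genes were chosen by the study from these same samples, so their counts are not independent evidence of a direction. Of the members it did not choose, Gstt1 and Gstt2 were not called and Gsta2 was not detected. After Benjamini-Hochberg adjustment over all detected transcripts, none of the 12 passed 0.05 in limma (lowest adjusted P = 0.215).

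**Figure D1:**
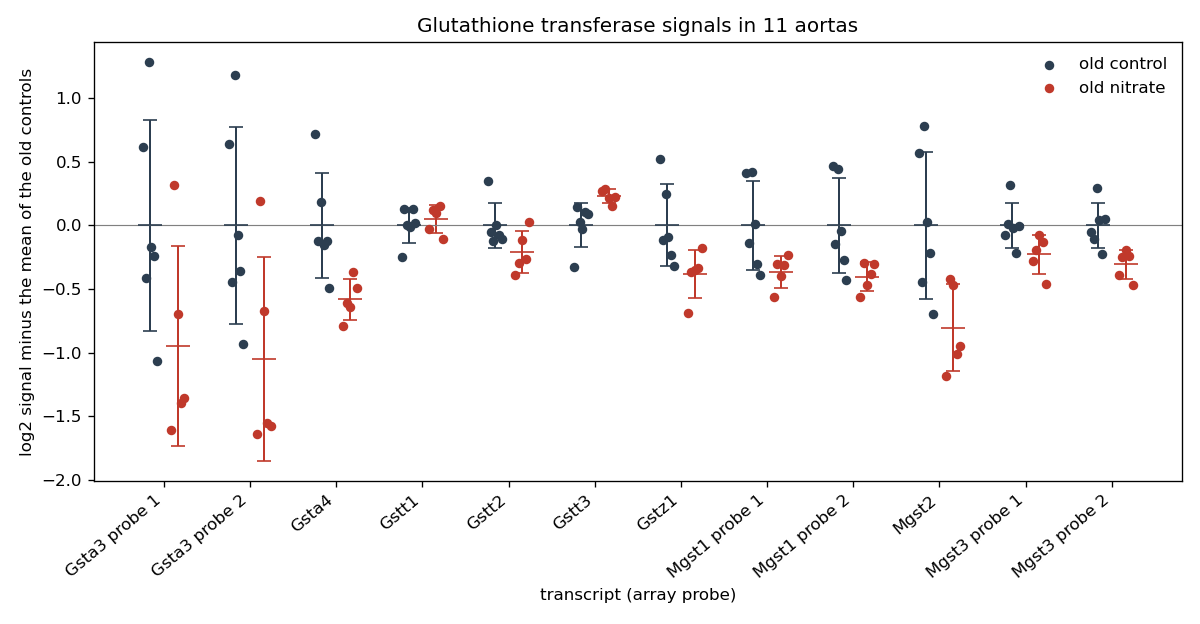
Log2 signal of the 12 detected transcripts in each of the 11 mice, minus the mean of the old controls. Points are mice, horizontal ticks are group means and bars are 1 SD, with old control mice (n = 6) in dark blue and old nitrate treated mice (n = 5) in red. Gsta3 and Mgst2 spread most within groups, and Gstt3 alone has all old nitrate treated mice above all controls.

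Among the alpha enzymes, Gsta3, which conjugates the epoxide of aflatoxin in the mouse, fell in old nitrate treated mice by both probes, and Gsta4, which conjugates hydroxynonenal and related aldehydes of oxidised lipids, fell as well. The first Gsta3 probe read 10.04, 11.96, 10.95, 10.25 and 10.29 in old nitrate treated mice 1 to 5. In old control mice it ran from 10.58 through a median of 11.44 to 12.92. The groups overlapped, since old nitrate treated mouse 2 exceeded 4 of the 6 controls, and controls 1 and 3 were the highest. The fold change was 1.93, a log2 difference of -0.95 ± 0.43 (SE, n = 5 and 6, limma P = 0.0473, adjusted P = 0.342, exact permutation P = 0.0931). The permutation test covers all divisions of the mice into groups of 5 and 6, and the smallest two-sided P value it can give is 0.00216. The second probe differed by -1.05 ± 0.42 (limma P = 0.0269, exact permutation P = 0.0541).

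The 2 Gsta3 probes moved together over the 11 mice (Pearson r = 0.993, P = 1e-05, Spearman rho = 0.991, P = 1e-05 by permutation, the smallest these permutations can give, and r = 0.987 without the 2 mice farthest from the median). Their log2 differences between the groups did not differ beyond the spread between mice (0.10, exact permutation P = 0.126). The residual SD of the first probe, 0.808, was above that of 99.4% of detected transcripts. On slide 3 the first probe differed by -1.90, on slide 1 by -0.74 and on slide 2, with 1 nitrate array, by -0.08. Its call was lost with slide as a block (-1.01), with scaling to the 75th percentile (-0.94), with no detection filter, and when mouse 1, 3, 4 or 5 of either group was left out, where the log2 difference was between -1.01 and -0.69. The second probe lost its call without old nitrate treated mouse 1, 4 or 5 or old control mouse 1 or 3 (between -0.92 and -0.81).

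Gsta4 read 7.45, 7.62, 7.59, 7.87 and 7.74 in old nitrate treated mice 1 to 5, and from 7.74 through a median of 8.11 to 8.95 in old control mice. 4 of the 5 old nitrate treated mice were below all controls, and 5 of the 6 controls were above all old nitrate treated mice. The fold change was 1.5 with a 95% interval from 1.14 to 1.96 (log2 difference -0.58 ± 0.18, limma P = 0.00665, adjusted P = 0.215, exact permutation P = 0.00866). It held within each slide, at -1.0, -0.32 and -0.46 on slides 1 to 3, and in each fit that left out 1 mouse, where the log2 difference ran from -0.68 to -0.44. Gsta2, an alpha enzyme best known from the liver, was not well above background on any of the 11 arrays, so no fold is given.

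Gstz1, the zeta enzyme, also called maleylacetoacetate isomerase because it takes part in the breakdown of tyrosine, fell by 1.30-fold. It read 12.15, 12.47, 12.49, 12.503 and 12.66 in old nitrate treated mice 1 to 5, and from 12.52 through a median of 12.74 to 13.36 in old control mice. 4 of the 5 old nitrate treated mice were below all controls. The log2 difference was -0.38 ± 0.15 (limma P = 0.0253, adjusted P = 0.297, exact permutation P = 0.0303), and the call was lost without old nitrate treated mouse 1 (-0.31) or old control mouse 3 (-0.34). Of the 4 other tyrosine genes listed, 2 were detected. Fah, which carries out the final step of that pathway, was called lower (-0.36 ± 0.16, exact permutation P = 0.0476), and Tat, which carries out the first, differed by 0.17 (exact permutation P = 0.310). Fah was called in 14 of 23 fits, and its call was lost with scaling to the 75th percentile, with no detection filter, with the adipocyte mean as a covariate (-0.03), without old nitrate treated mouse 2, 3, 4 or 5, and without old control mouse 1 or 3.

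The theta enzymes did not move as a class. Gstt1, Gstt2 and Gstt3 are neighbours on chromosome 10 and act on small halogenated compounds and organic peroxides. Gstt1 read 12.74, 12.89, 12.86, 12.92 and 12.66 in old nitrate treated mice 1 to 5, and from 12.52 to 12.90 in old control mice. Its log2 difference was 0.05, with a 95% interval from -0.13 to 0.23 (exact permutation P = 0.584). Gstt2 read 9.26, 9.36, 9.53, 9.39 and 9.68 in old nitrate treated mice, and from 9.53 to 10.002 in old control mice. Its log2 difference was -0.21 ± 0.10 (limma P = 0.0636, exact permutation P = 0.0693), and on slides 1 to 3 it was -0.49, -0.06 and -0.02. It was called in 1 fit, without old nitrate treated mouse 5 (-0.27).

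Gstt3 read 10.88, 10.90, 10.82, 10.76 and 10.84 in old nitrate treated mice 1 to 5, and from 10.29 through a median of 10.67 to 10.76 in old control mice. The groups did not overlap, by a margin within the rounding of these values, and 1 of the 12 transcripts was separated in this way, beside 2.75% of all detected transcripts. The log2 difference was 0.23 ± 0.08 (limma P = 0.0197, adjusted P = 0.282, exact permutation P = 0.00433). The fold of 1.17 was under the limit of 1.2, so Gstt3 was not called in the main test or in any alternative that kept this limit. It was above 0 within each slide (0.37, 0.18 and 0.13) and was 0.16 without old control mouse 1, the lowest control.

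Because levels of different probes cannot be compared, the responses of members of a class were compared within each mouse, in 7 pairs of genes. The response of Gstt2 minus that of Gstt3 was -0.44 on the log2 scale (exact permutation P = 0.00216, adjusted over the 7 pairs P = 0.0152). The groups did not overlap, by a very narrow margin. Old control mouse 1 was the highest control for Gstt2 and the lowest for Gstt3. Without it their log2 differences were -0.14 and 0.16, and the pair was not tested without it. The response of Gstt1 minus that of Gstt3 was -0.18 (exact permutation P = 0.0130, adjusted P = 0.0455). The response of Gstt1 minus that of Gstt2 was 0.26 (exact permutation P = 0.169). The response of Gsta3 minus that of Gsta4 was -0.37 ± 0.43 (SE, exact permutation P = 0.396), so a difference between these alpha enzymes was not detectable. Mgst1 minus Mgst2 was 0.44 (exact permutation P = 0.0411, adjusted P = 0.0960), Mgst2 minus Mgst3 was -0.58 (exact permutation P = 0.0606) and Mgst1 minus Mgst3 was -0.14 (exact permutation P = 0.429).

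**Figure D2:**
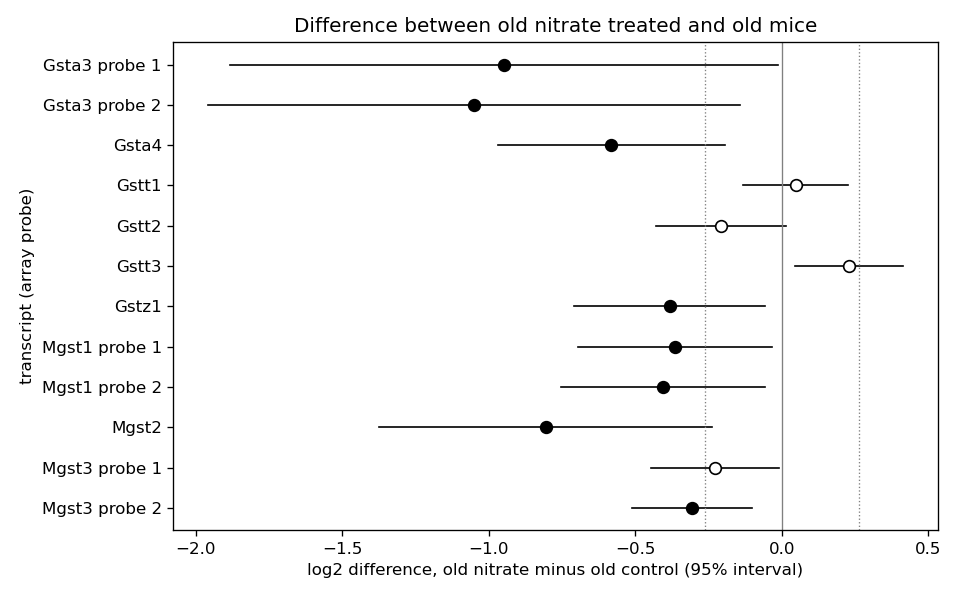
Log2 difference between old nitrate treated and old control mice for the 12 detected transcripts, with 95% intervals from limma. Filled circles were called, open circles were not, and dotted lines mark a fold change of 1.2. Gsta3 has the widest intervals, and Gstt3 and Gstt1 lie above 0.

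All 3 microsomal enzymes had lower signals in old nitrate treated mice. Mgst1, an abundant enzyme of the endoplasmic reticulum and the outer mitochondrial membrane, fell by 1.29-fold and 1.32-fold by its 2 probes. The first read 12.84, 13.09, 13.00, 13.09 and 13.16 in old nitrate treated mice 1 to 5, and from 13.01 through a median of 13.33 to 13.82 in old control mice. 4 of the 6 controls were above all old nitrate treated mice. The log2 differences were -0.36 ± 0.15 (limma P = 0.0340, exact permutation P = 0.0498) and -0.40 ± 0.16 (limma P = 0.0262, exact permutation P = 0.0390), and both calls were lost without old nitrate treated mouse 1, without mouse 3 of that group, and without old control mouse 1 or 3. The first probe also lost its call without old control mouse 4 and with scaling to the 75th percentile (-0.37). The probes agreed over the mice (r = 0.993, P = 1e-05, rho = 0.964, P = 3e-05 by permutation, and r = 0.971 without the 2 farthest mice), and their differences did not differ beyond the spread between mice (exact permutation P = 0.147).

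Mgst2, which can form leukotriene C4, fell by 1.75-fold, with a 95% interval from 1.18 to 2.59. It read 8.22, 8.99, 8.93, 8.39 and 8.46 in old nitrate treated mice 1 to 5, and from 8.71 through a median of 9.31 to 10.18 in old control mice. 3 of the 5 old nitrate treated mice were below all controls. The log2 difference was -0.81 ± 0.26 (limma P = 0.00935, adjusted P = 0.234, exact permutation P = 0.0281), and within slides 1 to 3 it was -0.86, -0.13 and -1.26. It was called in each fit that left out 1 mouse, from -0.95 to -0.65. None of the 4 leukotriene genes listed beside it (Alox5, Alox5ap, Ltc4s and Lta4h) was called or had a P value under 0.05 by limma, and their median log2 difference was 0.05.

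Mgst3, a membrane enzyme that also reduces lipid peroxides, stood on either side of the limit by its 2 probes. The first read 11.01, 11.09, 11.21, 11.15 and 10.83 in old nitrate treated mice 1 to 5, and from 11.07 through a median of 11.27 to 11.60 in old control mice. Its log2 difference of -0.23 ± 0.10 (limma P = 0.0408, exact permutation P = 0.0411) was a fold of 1.17 and was not called, except without old nitrate treated mouse 3 or old control mouse 5 (both -0.27). The second probe read 10.17, 10.31, 10.37, 10.32 and 10.09, and from 10.33 through a median of 10.55 to 10.85 in old control mice. 4 of the 5 old nitrate treated mice were below all controls, and this probe was called (-0.31 ± 0.09, fold 1.24, limma P = 0.00677, exact permutation P = 0.00866). The probes correlated over the mice (r = 0.951, P = 2e-05, rho = 0.90, P = 0.00039 by permutation, and r = 0.878 without the 2 farthest mice), and the gap of 0.08 between their differences was not beyond the spread between mice (exact permutation P = 0.0563). The fold of the second probe went under 1.2 without old control mouse 3, at a log2 difference of -0.25.

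3 further probes were picked after they had been seen in the files, because their descriptions refer to members under another name. A probe of the predicted gene Gm6372, described as similar to Mgst3, was called lower (-0.31 ± 0.09, limma P = 0.00650, exact permutation P = 0.00866), close to the second Mgst3 probe. Whether each of these probes also binds RNA of the other gene was not tested. A probe named by an Ensembl transcript of Gstt1 differed by -0.13 ± 0.10 (exact permutation P = 0.216), against 0.05 for the Gstt1 probe. A probe of Gm2693, described as similar to the Yc subunit that Gsta3 encodes, was above background on 1 array.

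**Figure D3:**
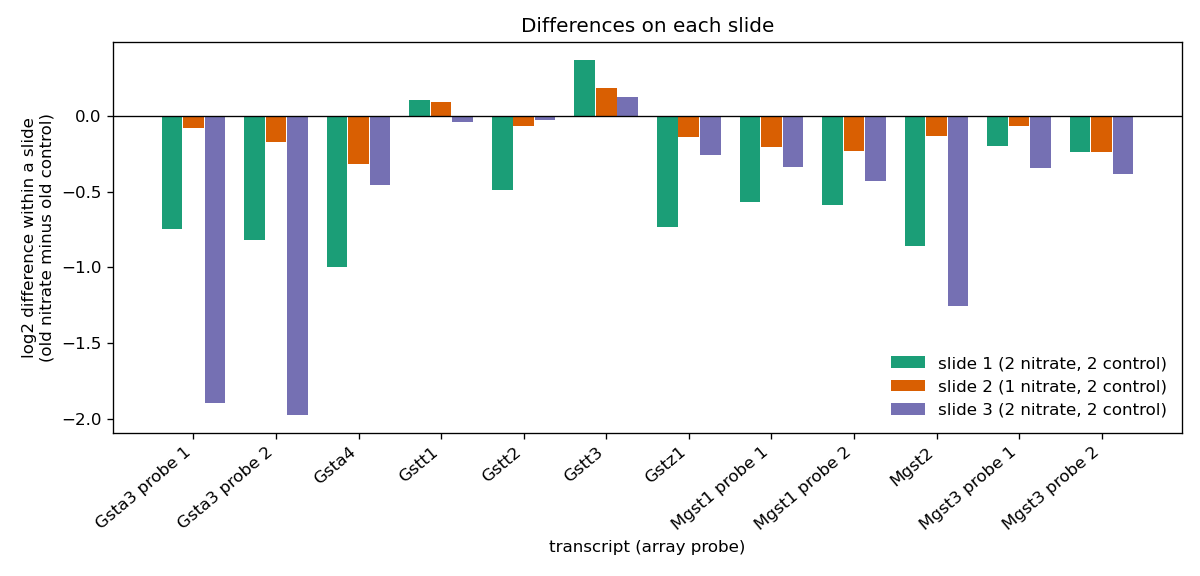
Log2 difference between the group means on each of the 3 slides for the 12 detected transcripts. Slides 1 and 3 hold 2 nitrate and 2 control arrays and slide 2 holds 1 and 2. 10 transcripts are below 0 on every slide, Gstt3 is above 0 on every slide, and Gstt1 is mixed.

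The differences within slides are parts of the overall differences, from which the study chose most of these genes. A shared sign across slides is therefore not separate evidence. The share of all transcripts with 1 sign on every slide was not computed. Of the 12 detected transcripts, some of which are probes of the same gene, 10 were lower in old nitrate treated mice on all 3 slides. The Gstt3 transcript was higher on all 3. Some of these differences lay near 0, such as -0.02 for Gstt2 on slide 3. For 9 of those 10 transcripts the difference was nearest 0 on slide 2. Single mice carried much of the spread. By the brightest probe, 7 of the 9 detected genes had their highest value in old control mouse 1 (Gsta4, Gstt2 and Gstz1) or 3 (Gsta3, Mgst1, Mgst2 and Mgst3), and 6 had their lowest in old nitrate treated mouse 1. The number of called member transcripts fell from 8 to 4 without old control mouse 1, to 2 without old control mouse 3 and to 3 without old nitrate treated mouse 1. Gsta4 and Mgst2 were called in all 3 of these fits.

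The same mice stood at the ends of the adipocyte markers. Old control mice 1 and 3 had the highest adipocyte means (0.69 and 0.52) and old nitrate treated mouse 1 the lowest (-0.47). Over the 11 mice, 7 of the 9 members correlated with this mean above 0 and 2 below 0. Gsta4 followed it most closely (Pearson r = 0.968, P = 2e-05, adjusted over the 9 relations P = 9e-05, Spearman rho = 0.918, P = 0.00027 by permutation), and r was 0.936 without the 2 mice farthest from the median. Gstz1 had r = 0.960 (P = 1e-05, rho = 0.918, P = 0.00026 by permutation, r = 0.859 without the 2 farthest mice) and Mgst1 r = 0.947 (P = 6e-05, rho = 0.873, P = 0.00091 by permutation, r = 0.815 without them). Mgst2 had r = 0.870 (P = 0.00100, rho = 0.773, P = 0.00759 by permutation, r = 0.622 without them). Gstt3 ran the opposite way, with r = -0.880 (P = 0.00028, rho = -0.836, P = 0.00233 by permutation, r = -0.804 without them). Adjusted over the 9 relations, these P values were at most 0.0018. Gstt2, which was not called, had r = 0.767 (P = 0.0060, adjusted P = 0.0090, rho = 0.627, P = 0.0440 by permutation, r = 0.762 without them). Gsta3 had r = 0.718 (P = 0.0128, adjusted P = 0.0164, rho = 0.655, P = 0.0335 by permutation), and r fell to 0.307 without the 2 farthest mice. Over all mice the Gsta3 relation thus depended on those mice, whereas among the controls alone r was 0.987 without the 2 farthest. The relation was also present within the 6 controls alone for Gstz1 (r = 0.971, exact permutation P = 0.00417), Mgst1 (0.960, P = 0.00556), Gsta4 (0.955, P = 0.00833), Mgst2 (0.949, P = 0.00694) and Gsta3 (0.913, P = 0.00972), where 9 relations were computed and each of these had an adjusted P of 0.0175. In the controls rho was 0.943 for Gstz1, Mgst2 and Gsta3 (exact permutation P = 0.0167), 0.886 for Mgst1 (P = 0.0333) and 0.771 for Gsta4 (P = 0.103). Without the 2 farthest of the 6 controls r was between 0.819 and 0.987 for these 5 genes. So few mice remained that these values are descriptions only. No correlation was computed within the 5 old nitrate treated mice alone. Among them, mouse 2 had the highest Gsta3 (11.96) and Mgst2 (8.99) signals with the second lowest adipocyte mean (-0.37). Mouse 4, with the highest mean (-0.06), had the second lowest signals of both genes (10.25 and 8.39), so their order differed from the adipocyte order. Gsta4, in contrast, was highest in mouse 4 (7.87). Gstz1 (12.66) and Mgst1 (13.16) were highest in mouse 5, with the second highest mean (-0.13). All of these genes were lowest in mouse 1, which had the lowest mean. A slide held at most 4 arrays, too few for a correlation within slides. In the controls Gstt3 had r = -0.777 (exact permutation P = 0.0542, adjusted P = 0.0813, rho = -0.771, P = 0.103), and r was -0.391 without the 2 farthest controls. Gstt2 had r = 0.659 there (exact permutation P = 0.149, adjusted P = 0.167, rho = 0.371, P = 0.497), so neither relation was detectable within the controls alone. For Mgst3 it was not detectable in all mice (r = 0.550, P = 0.0818 by permutation) or in the controls (r = 0.320, exact permutation P = 0.590).

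With the adipocyte mean as a covariate in limma, 0 of the 12 member transcripts were called and 0 had a P value under 0.05, while 1575 of all detected transcripts were called. The adipocyte mean itself differed between the groups (-0.45, exact permutation P = 0.0216), so this fit cannot tell covariate and treatment apart. The log2 difference then was -0.08 for Gsta4, -0.20 for Mgst2, -0.20 for the first Gsta3 probe and 0.06 for Gstt3, and those of Gstz1 (0.03) and both Mgst1 probes (0.05 and 0.02) turned above 0. The second Mgst3 probe moved least among the called transcripts, to -0.24.

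**Figure D4:**
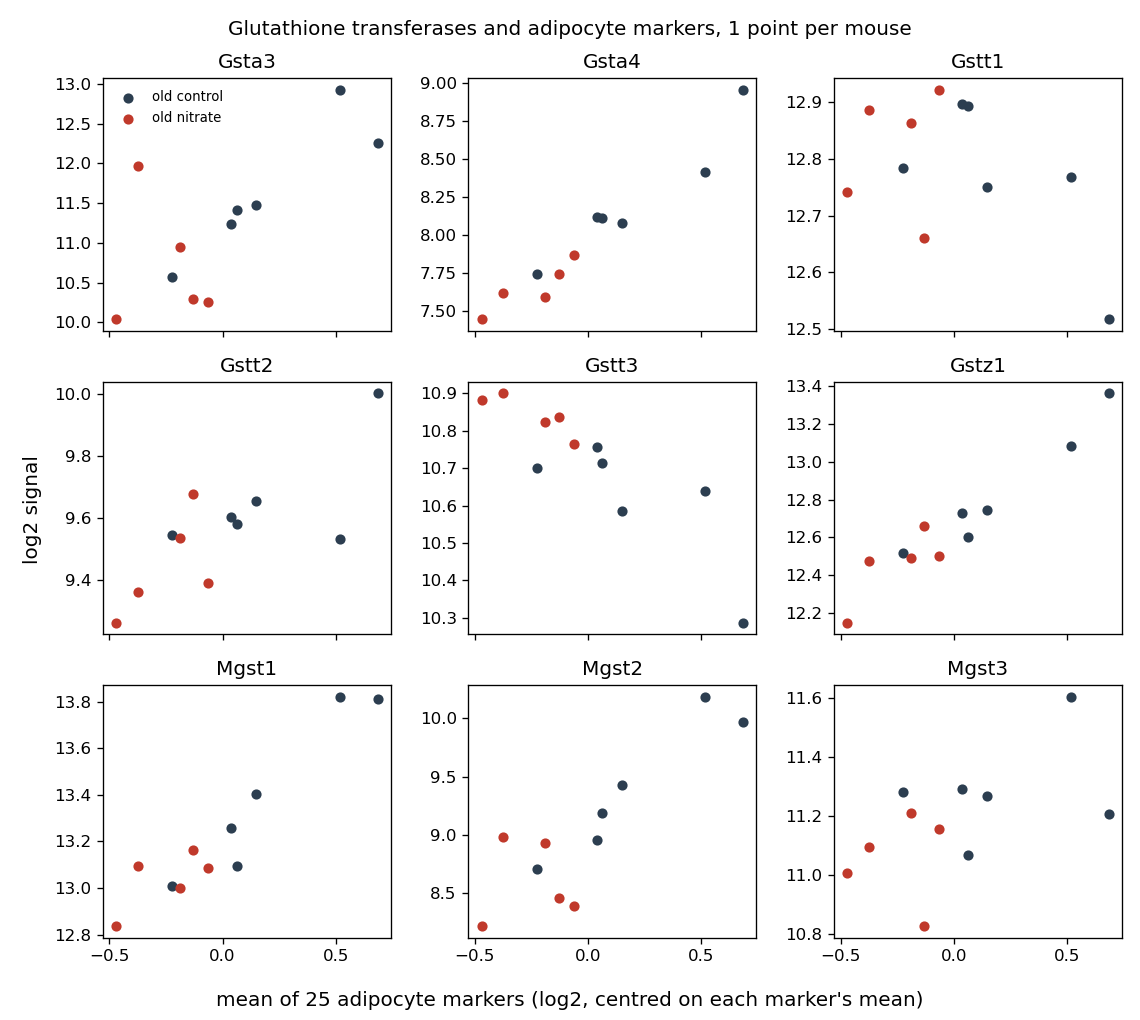
Log2 signal of the 9 detected members by their brightest probe against the mean of the 25 adipocyte markers, 1 point per mouse, with old control mice (n = 6) in dark blue and old nitrate treated mice (n = 5) in red. Gsta4, Gstz1 and Mgst1 run upward along the axis, Gstt3 runs downward, and Mgst3 shows no clear relation.

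Of 58 other glutathione genes listed, 45 were detected and 3 were called (6.67%, beside the 8.89% of all names), with a median log2 difference of -0.02. None of the 15 detected genes listed as other transferases and their relatives, among them the mu, pi, omega and kappa enzymes, was called. Among 12 detected genes of glutathione synthesis, recycling and breakdown, Ggt7, of the gamma-glutamyltransferase family, was called higher (0.34 ± 0.13, exact permutation P = 0.0108). Among 13 detected peroxidases, glutaredoxins and glyoxalases, the secreted peroxidase Gpx3 (-0.60 ± 0.10, exact permutation P = 0.00216) and Gpx4, which reduces lipid peroxides in membranes (-0.49 ± 0.12, exact permutation P = 0.00433), were called lower, each without overlap between the groups. With the adipocyte mean as a covariate Gpx3 was still called (-0.62), and Gpx4 (-0.16) and Ggt7 (0.08) were not. Ggt7 also lost its call after normexp background correction (0.20), without old nitrate treated mouse 2 (0.26) and without old control mouse 1 (0.24). None of the 5 detected exporters of glutathione conjugates was called, but the transporter Abcc1 was higher by 0.22 ± 0.07 on the log2 scale without overlap between the groups (limma P = 0.00870, exact permutation P = 0.00433), under the limit on the fold change. Whether the members were called more often than these other genes was not tested.

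Of 12 genes listed as NRF2 and its targets, 11 were detected, 9 had higher means in old nitrate treated mice and 5 were called, all higher, beside the 8.89% of all names called in either direction, with a list median of 0.19 against 0.02 over all names. A difference between this list and the members was not tested. They were NRF2 itself (Nfe2l2, 0.28 ± 0.09), Nqo1 (0.29 ± 0.13), Hmox1 (0.30 ± 0.09), Osgin1 (0.37 ± 0.09) and Ephx1 (0.41 ± 0.11). Of these only Osgin1 and Ephx1 were without overlap between the groups, beside the 2.75% of all detected transcripts, and none passed 0.05 after adjustment in limma. Gclc and Gclm, the subunits that limit glutathione synthesis and which both lists hold, differed by 0.19 (exact permutation P = 0.0519) and -0.06 (exact permutation P = 0.749). The number called ran from 3 to 5 under the alternatives tried, and all were higher in each. With the adipocyte mean as a covariate 3 of the 5 genes named were called, while Nqo1 (0.12) and Ephx1 (0.23) lost their call. Nqo1 was called in 15 of 24 fits and also lost its call with a replicate block, with no detection filter and without old nitrate treated mouse 1, 3 or 4 or old control mouse 1, 2 or 4. Nfe2l2 lost its call without old nitrate treated mouse 4 or old control mouse 1 or 2, and Hmox1 without old nitrate treated mouse 2.

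The transcripts whose values over the 11 arrays were most like a member, after the group means were taken out, were sought for the 3 members with the largest called differences. For Gsta3 they were Dab1 (r = 0.976), Mogat2 (0.967) and Chn1 (0.958), of which Chn1 was called lower (-0.64). For Mgst2 they included Mogat1 (0.967) and Slc25a10 (0.966), of which Slc25a10 was called lower (-0.80). For Gsta4 they were Slc46a3 (0.992), Sema4a (0.977) and Tbc1d4 (0.971), of which Tbc1d4 was called lower (-0.64). Measured in the same way, Gsta3 and Mgst2 were alike (r = 0.932), as were Gsta4 and Gstz1 (0.920), whereas Gsta3 and Gsta4 of the same class had r = 0.532 and Gsta4 and Gstt3 had r = -0.839. These correlations are descriptions over 11 arrays that share the same normalization.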

How the data were processed

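The authors deposited, for each of the 11 arrays, spot intensities written by Feature Extraction 10.7.1.1, background-subtracted and not normalized between arrays. A second, deposited log2 table was used as an alternative. It matched the intensities after quantile normalization with each probe centred on its median over the arrays, and its column medians ran from -0.027 to 0. For the main values, control probes and spots with an outlier flag were removed, processed signals under 1 were set to 1, and log2 values were averaged over the spots of a probe and quantile normalized. Detection required a spot that was found and well above background on 5 or more arrays of a group, which 23630 of 55681 probes met. Calculations used R 4.3.3 and limma 3.58.1 over all 11 arrays with no covariate, and the test was checked on simulated data. Probes that failed detection took their values from a fit over all probes. Exact permutation tests were two-sided. Where a gene had several detected probes, the brightest stood for it.

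The genes named are all members, the called genes of the glutathione, NRF2, tyrosine and leukotriene lists, a few defining markers, and the 3 transcripts most like each of the 3 members with the largest called difference, of which 1 transcript is not reported here. Genes outside this rule were named after their values were seen. They are Cidea, Lmod1, Smtn, Abcc1, the probes of Gm6372, Gm2693 and a Gstt1 transcript, and the uncalled list genes Gstm4, Tat, Gclc, Gclm, Alox5, Alox5ap, Ltc4s and Lta4h. Members and lists were chosen with the paper and earlier results of these data known. Promoters are RefSeq sequences, and positions relative to exons were not analysed here. A planned comparison of protein sequences was not run. Alternatives covered scaling, background correction, an offset of 16, detection, outlier flags, the prior variance, blocks for slide and replicate number, an adipocyte covariate, the choice of probe and each array left out in turn. Counts of the NRF2 list under these were added after the data had been seen.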

Additional observations from a re-analysis of the deposited data

Results flagged for a closer look

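Old control mouse 1 lay apart from the other controls in 2 members. For Gstt2 it was the highest, and its gap to the nearest control was 0.737 of the range of the 6 controls. For Gstt3 it was the lowest, with a gap of 0.633 of the range. Without this mouse the log2 difference of Gstt2 was -0.14 and that of Gstt3 was 0.16, and neither was called. In all, 26 groups of values were examined in this way and 2 stood out, where about 1 in 20 groups does so by chance. The same array had the highest adipocyte mean, 0.69.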

How the results depend on the processing

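The 8 called member transcripts became 0 with the adipocyte mean as a covariate, and the 5 called member genes became 0 with that covariate and 3 with scaling to the 75th percentile. The 3 called other glutathione genes became 1 with the covariate, 5 with slide as a block and 5 with a replicate block. Among all detected transcripts 2127 were called, against 1217 after normexp background correction, 3224 with no detection filter and 3393 with no limit on the fold change. Of the calls, 46.2% were higher in old nitrate treated mice in the main test, 35.8% after normexp and 56.6% with the covariate. Leaving out each array in turn gave 2 to 8 member transcripts, 2 to 5 member genes, 2 to 5 other glutathione genes and 1595 to 2423 transcripts of the whole array. With the covariate the log2 difference changed sign for Gstt1 (-0.055), Gstz1 (0.029) and the Mgst1 probes (0.047 and 0.022). The Gsta2 probe, not well above background on any array, has no measured direction, and its fitted values (0.27 with the covariate, -0.34 to 0.10 with 1 array left out) are given for completeness only. With 1 array left out, that of Gstt1 ran from -0.0037 to 0.085. The causes were not tested. Of the 154 values of single probes under alternatives that kept all arrays, 142 stayed on their side of the threshold and 12 lost their call, 3 of them with a change of sign. With 1 array left out, 25 of 143 lost their call and 3 gained one.

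Groups share replicate numbers, but deviations of arrays with the same number correlated between -0.14 and 0.18, so the numbers were not taken as pairs. With the replicate block, 8 member transcripts and 5 member genes were called and no member changed its call. The number of mice, the signal of Gsta2 near background and the confounding of slide column with treatment limit these results, and 1 detected probe stands for most genes.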
